A study of Homo sapiens with 3 samples.

Results

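The U6 small nuclear RNA (snRNA) genes and pseudogenes were examined in a CLIP experiment (crosslinking and immunoprecipitation) on DIS3L2, a 3′ to 5′ exoribonuclease that degrades RNAs with an oligo(U) tail. The 3 libraries form a single group. They came from a human embryonic kidney cell line, given as HEK293 in the labels and as HEK293T-Rex in the study's methods, and each was labelled as overexpressing the D391N mutant, a catalytically dead form that holds its substrates. By the study's methods the protein carried a Flag tag and was expressed from an inducible transgene; no wild-type or untransfected control was analysed here. The deposited table gives, for 1533 genomic windows of 50 nt on GRCh37/hg19, the uniquely mapped reads and those among them that end in an untemplated run of T (U+ reads). Members were the windows of class snRNA whose gene symbol starts with RNU6. There were 32 of them, in 32 different genes on 19 chromosomes, and none was a U6ATAC gene. Of these genes, 31 bear a pseudogene symbol and 1 is the functional gene RNU6-1. The background was the 26 other snRNA windows. Both counts were summed over the 3 libraries before deposition, so values have no replicate error. The 95% Wilson intervals below cover counting error only and take every read as independent. PCR copies are not independent molecules, so the intervals may be too narrow.

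U6 is the snRNA at the catalytic centre of the spliceosome. Unlike most other spliceosomal snRNAs it is made by RNA polymerase III, which stops within a genome-encoded run of T, so the primary transcript already ends in uridines. This end is bound by the La protein (SSB), lengthened by the U6-specific uridylyltransferase TUT1, trimmed by USB1 and then held by the LSM2-8 ring. The human genome also carries many truncated or diverged U6 copies. Those that arose by reverse transcription of U6 RNA commonly have an A-rich stretch downstream instead of the terminator.

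The reference for all copies was RNU6-1 (ENSG00000206625), a gene of 107 nt on the minus strand of chromosome 15. Its last 5 bases are the encoded T run, and the 102 nt before it are called the body here.

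The next 6 sequences are windows on GRCh37, each read 5′ to 3′ on the strand of its gene. The capitals mark TTCCAT, the hexamer close to the 3′ end of the body, searched on the strand of the gene. The first 4 are among the 5 windows with 500 or more unique reads. RNU6-222P and RNU6-981P are shown because they lie almost wholly past the U6 body.

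RNU6-1141P, chr10:21950550-21950599, minus strand: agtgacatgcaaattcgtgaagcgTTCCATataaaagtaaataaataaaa
RNU6-702P, chr18:19760050-19760099, minus strand: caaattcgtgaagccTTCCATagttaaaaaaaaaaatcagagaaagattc
RNU6-37P, chr1:10359100-10359149, plus strand: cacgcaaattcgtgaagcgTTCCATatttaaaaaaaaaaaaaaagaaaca
RNU6-103P, chr16:58530850-58530899, plus strand: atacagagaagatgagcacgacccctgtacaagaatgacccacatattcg
RNU6-222P, chr19:55380350-55380399, minus strand: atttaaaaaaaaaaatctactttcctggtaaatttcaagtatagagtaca
RNU6-981P, chr17:37638700-37638749, minus strand: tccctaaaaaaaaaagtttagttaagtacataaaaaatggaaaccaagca

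In RNU6-1141P, RNU6-702P and RNU6-37P the window runs out of the body into A-rich sequence. The windows of RNU6-1329P and RNU6-103P stop inside the body.

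The U6 windows had high U+ fractions, the share of unique reads that are U+. They held 8452 unique reads, of which 7472 were U+ (88.4%, interval 87.7 to 89.1%). The median fraction over the 32 windows was 92.2% (interquartile range 78.0 to 96.6%, range 41.1 to 100%), against 48.5% in the other 26 snRNA windows and 70.2% in all listed windows. The lower bound of the interval lay above 50% in 30 of the 32 U6 windows (93.75%). This was so in 11 of the 26 other snRNA windows (42.3%) and in 67.3% of all windows. A lower bound above 75% was found in 18 U6 windows (56.25%), in 4 other snRNA windows and in 14.4% of all windows. Of the U6 windows, 31 were pseudogene-named, but the other snRNA windows mixed functional genes and pseudogene-named copies. RNU11 (70.4%) and RNU5B-1 (39.5%) are of the first kind, RNU2-70P (92.9%) and RNU1-88P (16.9%) of the second. Gene family and pseudogene status were therefore not told apart. The table had been selected on uridylation in the first place, windows are not replicates, and no test was run on these differences.

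**Figure D1:**
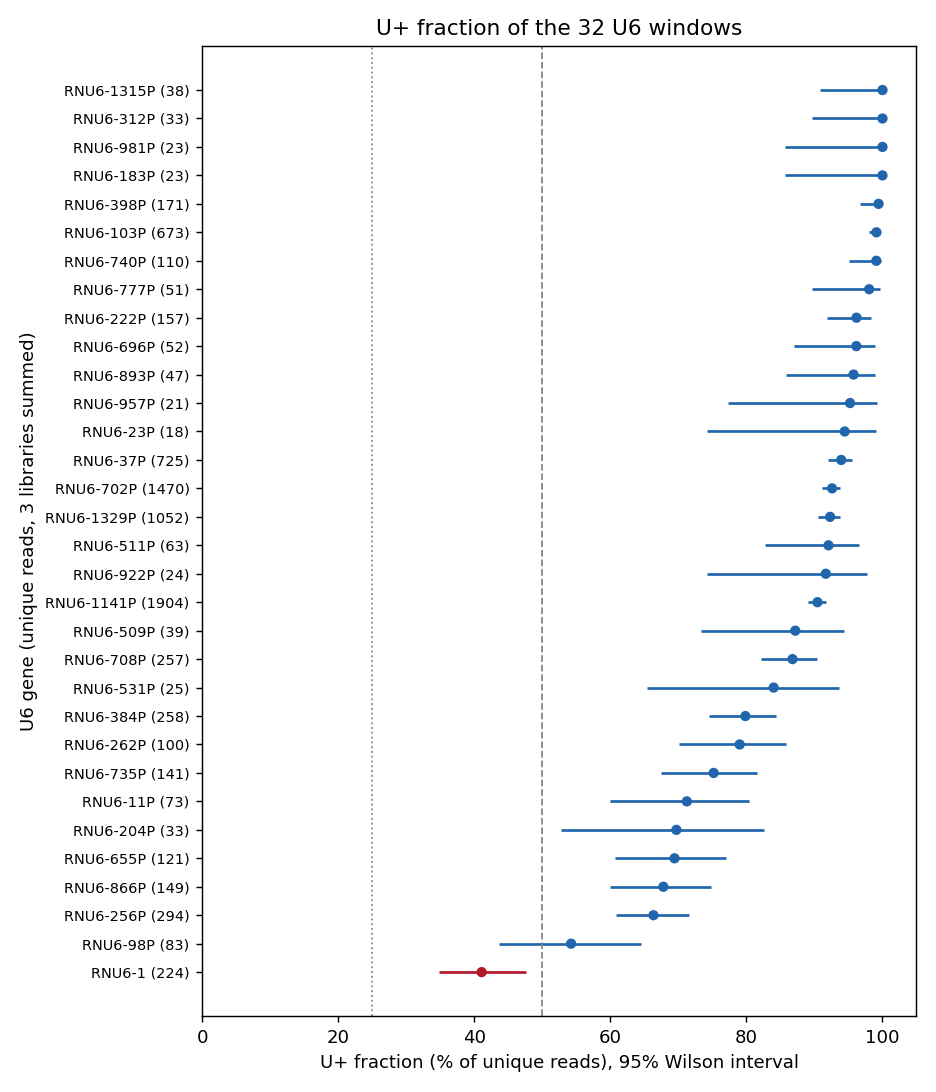
U+ fraction of each U6 window (x axis, % of unique reads) with its 95% Wilson interval (line), ordered by fraction; unique reads are in brackets, the dotted line marks 25% and the dashed line 50%. RNU6-1 (red) is lowest at 41.1%, and 30 of the 31 pseudogene-named copies (blue) have intervals wholly above 50%.

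RNU6-1 was the only functional U6 gene with a listed window. The others looked for, RNU6-2, RNU6-7, RNU6-8 and RNU6-9, had none in the table used here. It had 92 U+ reads among 224 unique reads, a fraction of 41.1% (34.8 to 47.6%), the lowest of all members. Its interval overlapped that of RNU6-98P (45 of 83 reads, 54.2%, 43.6 to 64.5%) and no other. The RNU6-1 window also differed in place: it held the gene's first 34 nt and the sequence upstream, and ended 73 nt before the annotated 3′ end. The values here therefore do not cover the mature 3′ end of the functional gene, and windows outside the deposited table were not analysed here. The study's appendix does list RNU6-1 and RNU6-2 among snRNAs with uridylated reads and coverage past the mature 3′ end.

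A few pseudogenes supplied most of the reads. The 5 windows with at least 500 unique reads held 5402 U+ reads, 72.3% of those in U6 windows. RNU6-1141P (ENSG00000201390) was the deepest, with 1722 U+ among 1904 unique reads (90.4%, 89.0 to 91.7%). RNU6-702P (ENSG00000201852) had 1361 of 1470 (92.6%, 91.1 to 93.8%), and RNU6-1329P (ENSG00000202534) had 971 of 1052 (92.3%, 90.5 to 93.8%). These 3 copies had closely similar fractions at the greatest depth in the family. RNU6-37P (ENSG00000199562), inside the kinesin gene KIF1B on the same strand, had 681 of 725 (93.9%, 92.0 to 95.4%). RNU6-103P (ENSG00000200556), inside NDRG4 on the same strand, had 667 of 673 (99.1%, 98.1 to 99.6%), above the intervals of the other 4. The sixth by U+ reads was RNU6-708P, with 223 of 257 (86.8%, 82.1 to 90.4%).

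Some intervals did not overlap among the 16 members that had 100 or more unique reads, with every read taken as independent. RNU6-398P was highest, with 170 U+ of 171 reads (99.4%, 96.8 to 99.9%). RNU6-103P came next, then RNU6-740P with 109 of 110 (99.1%) and RNU6-222P with 151 of 157 (96.2%, 91.9 to 98.2%). At the low end, above RNU6-1, were RNU6-256P with 195 of 294 (66.3%, 60.7 to 71.5%), RNU6-866P with 101 of 149 (67.8%, 59.9 to 74.8%) and RNU6-655P with 84 of 121 (69.4%, 60.7 to 76.9%). The intervals of these 3 low copies overlapped one another, and all lay below those of the 4 high copies. RNU6-384P (79.8%), RNU6-262P (79.0%) and RNU6-735P (75.2%) fell between.

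In 4 windows every unique read was U+: RNU6-1315P (38 reads, lower bound 90.8%), RNU6-312P (33 reads, 89.6%), RNU6-183P and RNU6-981P (23 reads each, 85.7%). All were shallow, so their bounds did not separate them from most other copies. The remaining shallow windows were RNU6-777P (98.0%), RNU6-696P (96.2%), RNU6-893P (95.7%), RNU6-957P (95.2%), RNU6-23P (94.4% of 18 reads, 1 of 11 listed windows with under 20 unique reads), RNU6-511P (92.1%), RNU6-922P (91.7%), RNU6-509P (87.2%), RNU6-531P (84.0%), RNU6-11P (71.2%) and RNU6-204P (69.7%).

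Fraction and depth had no steady relation. The median was 95.2% in the 11 windows under 50 unique reads, 92.1% in the 5 with 50 to 99, 79.0% in the 11 from 100 reads up to the 500-read group, and 92.6% in the 5 deepest. Spearman's rho between U+ fraction and the log10 of unique reads was -0.29 over the 32 windows. It was 0.21 over the 16 windows with at least 100 reads, so its sign turned. The windows share libraries, and these values are descriptions.

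**Figure D2:**
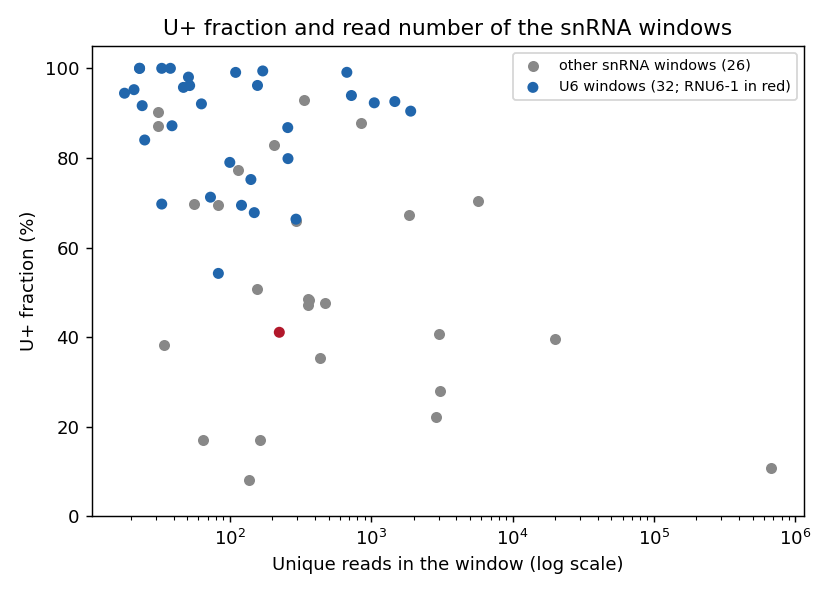
U+ fraction (y axis, %) against unique reads (x axis, log scale) for the 32 U6 windows (blue; RNU6-1 in red) and the 26 other snRNA windows (grey). U6 windows had a median of 91.5 unique reads and other snRNA windows 346.5; the deepest U6 windows stay above 90%, whereas the deepest other snRNA window, with 678516 reads, is at 10.9%.

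The weight of U6 within the snRNA class depended on what was counted. U6 windows were 32 of the 58 snRNA windows (55.2%), but held 1.16% of the unique reads and 7.49% of the U+ reads (7472 of 99706, interval 7.33 to 7.66%). Without the windows of RNU2-2P, a U2 snRNA gene with very many reads, the share of U+ reads was 30.1%. The other families were U1 (11 windows, median U+ fraction 50.6%), U2 (8 windows, 48.5%) and U12 (3 windows, 47.2%), with 1 window each for U11 (70.4%), U4 (87.1%), U4ATAC (35.2%) and U5 (39.5%). The medians of 5S rRNA and Y RNA, polymerase III transcripts that also have many pseudogenes, lay between that of U6 and that of the other snRNA windows. The 43 windows of 5S rRNA had a median of 81.0%, and the 47 of Y RNA 68.1%.

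The windows clustered at the 3′ side of the gene. The window held the annotated last base of the gene in 25 of 32 members (78.1%) and reached a median of 19 nt past it, at most 46 nt. Among other snRNA windows, 6 of 26 did so, but those genes were longer (median 165 nt against 107 nt). The 7 windows that ended before the annotated 3′ end were those of RNU6-1, RNU6-1329P, RNU6-103P, RNU6-256P, RNU6-398P, RNU6-98P and RNU6-531P. The median U+ fraction was 92.6% where the window held the 3′ end (67.8 to 100%). It was 88.2% in the 6 pseudogenes whose window ended before it (54.2 to 99.4%), so the ranges overlapped widely.

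**Figure D3:**
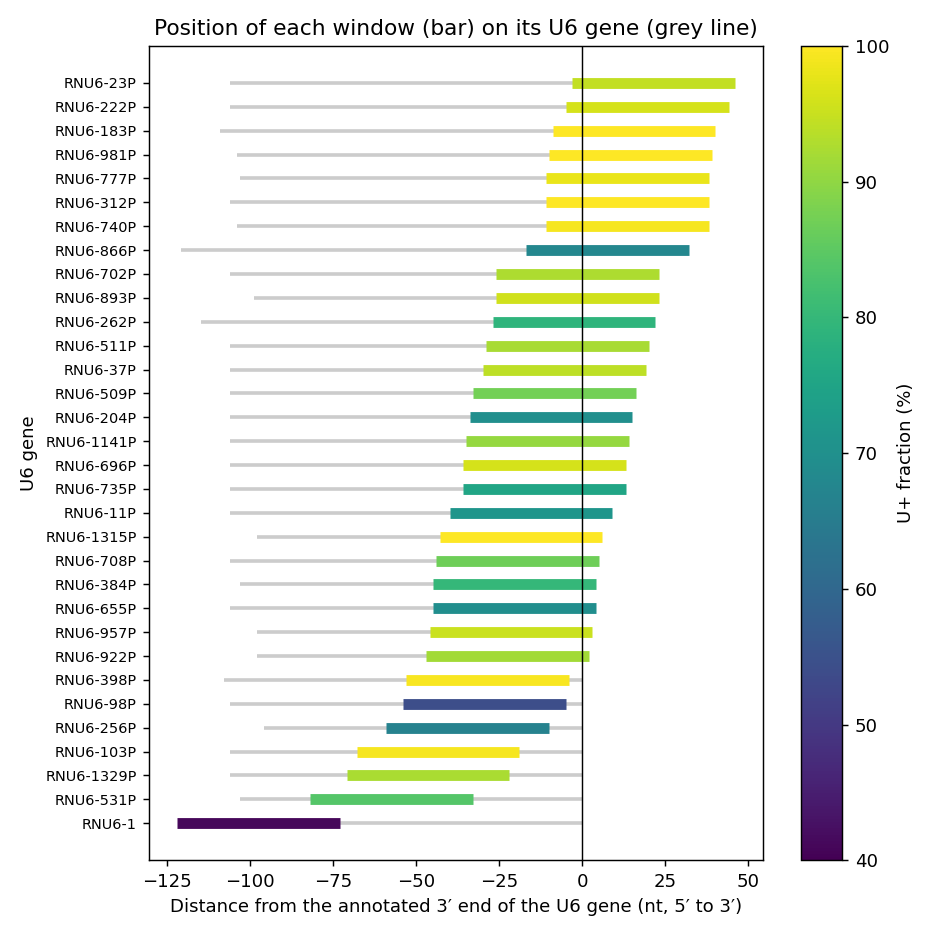
Position of each 50-nt window (coloured bar) on its U6 gene (grey line), in nt from the annotated 3′ end (0, vertical line); colour gives the U+ fraction. The window crosses the 3′ end in 25 of 32 genes, and in RNU6-1 it ends 73 nt before it.

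Windows that held little U6 sequence had high U+ fractions. The body was aligned to each gene, and a window held a median of 31.5 nt of it. In 7 windows (RNU6-740P, RNU6-777P, RNU6-222P, RNU6-312P, RNU6-183P, RNU6-981P and RNU6-23P) it held under 10 nt, as in the RNU6-222P and RNU6-981P sequences above. Their U+ fractions were 94.4 to 100%, with a median of 99.1%, against 87.2% in the other 25. Over the 31 pseudogene-named members, rho between U+ fraction and body bases in the window was -0.40. Depth differed too: RNU6-222P had 157 unique reads and RNU6-740P 110, but RNU6-777P had 51 and RNU6-312P 33. RNU6-183P and RNU6-981P had 23 each, and RNU6-23P had 18. Windows under 50 unique reads had a median of 95.2% in any case, so body content and depth were not told apart. The rule by which a read was counted in a window is not given in the sources used here, so these reads may span both sides of the junction. RNU6-23P shows the extreme, with no body base in its window.

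The copies with a window differed from annotated U6 copies at large in what the genome encodes past the body. A window was listed only through reads that end in T not encoded by the genome. That call could itself keep out copies with an encoded T run. The contrasts in this paragraph therefore cannot be told apart from the selection of windows. GENCODE lists 1321 RNU6 genes, of which the 32 members are 2.42%. At least 4 T straight after the body, as in RNU6-1, occurred in 46.0% of all annotated genes but in 1 member (3.125%), which was RNU6-1 itself. No T followed the body in 14 members (43.8%, against 25.2% of all), as in RNU6-702P. A run of at least 5 A within the next 20 nt was present in 27 members (84.4%), against 37.9% of all annotated genes. The median number of A in those 20 nt was 13 in members and 8 in all. RNU6-37P carried 15 A in a row and RNU6-1315P 20. Searched within 30 nt of the annotated 3′ end, a run of at least 4 T was found in 9 members (28.1%) and in 70.2% of all.

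**Figure D4:**
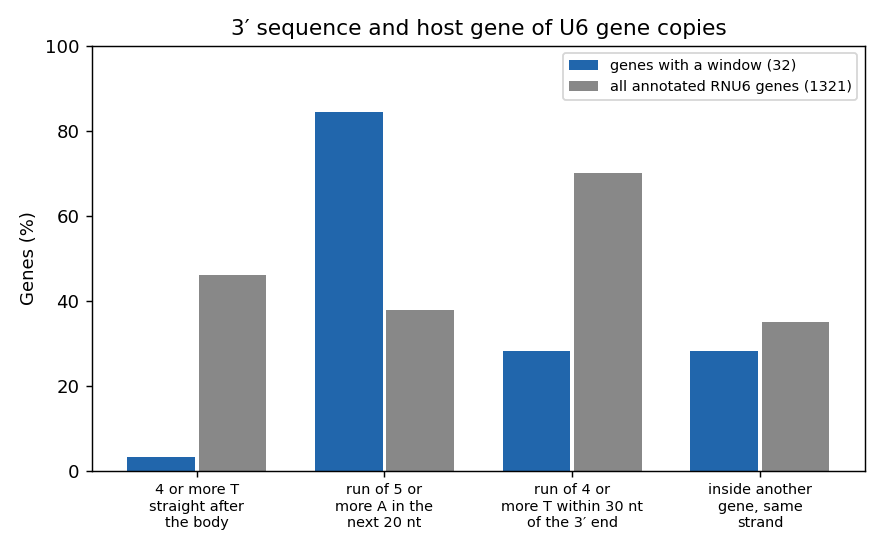
Share of U6 genes (y axis, %) with each feature, for the 32 genes with a window (blue) and all 1321 annotated RNU6 genes (grey). Genes with a window have 4 or more T straight after the body in 3.125% against 46.0%, and an A run in 84.4% against 37.9%. Windows were listed through untemplated T, so these contrasts cannot be told apart from that selection.

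A read counted as U+ had to end in T that the genome does not encode, but the study also states that for polymerase III transcripts, to which U6 belongs, uridines encoded at the 3′ end could not be told apart from added ones. A U+ read of a copy with encoded T at its end may therefore carry no added tail. This includes reads of near-identical copies that may have been placed in a window without such T. The part of this in the pattern was not tested. Within the windows themselves, none of the 32 U6 windows held a run of at least 4 T, against 5 of 26 other snRNA windows (19.2%), 7 of the 43 5S rRNA windows (16.3%), 10 of the 47 Y RNA windows (21.3%) and 8.61% of all listed windows. A run of at least 5 A was found in 19 U6 windows (59.4%), against 3 of the other snRNA windows (11.5%), 11 of the 43 5S windows (25.6%), 18 of the 47 Y RNA windows (38.3%) and 5.68% of all listed windows. These shares were not matched for position. The annotated 3′ end lay within 25 of the 32 U6 windows, but within 6 of the 26 other snRNA windows. Among the pseudogene-named members, the U+ fraction had no steady relation to the number of encoded T. The median was 92.4% with 0 T after the body (14 members), 88.6% with 1 (4), 91.7% with 2 (7) and 94.6% with 3 (6). RNU6-1, with 5 T, had the lowest fraction of all (41.1%), in a window that did not reach its 3′ end.

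Divergence from the functional gene ranged widely. Identity to the RNU6-1 body had a median of 88.2% in the 31 pseudogene-named members (74.5 to 100%), against 83.3% in all annotated RNU6 genes without RNU6-1. RNU6-37P and RNU6-11P matched the body without a difference, as did 11 annotated genes in all, RNU6-1 included. The most diverged member was RNU6-256P, with 26 of the 102 body bases not matched. Identity had no visible relation to the U+ fraction (rho -0.04 over 31). TTCCAT was present at the body's end in 22 members (68.8%) and in 44.2% of all annotated genes. Members were listed through uniquely mapped U+ reads, so this contrast and that in identity cannot be told apart from the selection of windows. The letters TATA were searched on the strand of the gene, 35 to 20 nt upstream of the start. The U6 promoter has its TATA box there. The motif was found in RNU6-1 and RNU6-1141P (6.25%) and in 8.93% of all annotated genes.

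Near-identity limits how firmly a read can be placed. A second place in the genome that matched 45 nt or more, with up to 2 differences, existed for 6 windows: RNU6-1329P (65 places), RNU6-398P (28), RNU6-11P (6), RNU6-23P (6), RNU6-957P (3) and RNU6-37P (1). Their counts may belong in part to other copies. The median U+ fraction was 94.2% in these 6 and 91.1% in the 26 without such a match. The last 20 nt of the body lay whole within the window in 18 members, and in 11 of them this stretch occurs once in the genome. It occurs 47 times for RNU6-1141P, RNU6-37P, RNU6-398P and RNU6-11P. Extended to 30 nt, it is single for RNU6-1141P. RNU6-1141P and RNU6-702P, the copies with the most U+ reads, had no match elsewhere under the first definition.

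Members lay in host genes about as often as U6 copies in general. A gene on the same strand contained 9 windows (28.1%), against 34.9% of all annotated RNU6 genes. For 6 of them it was protein-coding: KIF1B (RNU6-37P), NDRG4 (RNU6-103P), ZBTB7C (RNU6-708P), PPIL3 (RNU6-312P), HTT, the huntingtin gene (RNU6-204P), and CDK19, a Mediator kinase gene (RNU6-957P). In these, reads of the U6 copy cannot be told apart from reads of the host transcript by position. The U+ fraction had a median of 93.9% with a host on the same strand (69.7 to 100%) and 92.1% without one (41.1 to 100%). Only the windows of RNU6-384P and RNU6-312P touched an exon of such a host.

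Some proteins that act on U6 or on related RNAs had a window in their own mRNA. Of 20 genes listed for U6 maturation, tailing, capping and assembly, which included TUT1, TUT4, TUT7, USB1, SSB, LARP7 and LSM2 to LSM8, 3 had an mRNA window. LSM4 (33 U+ of 47 reads, 70.2%) and LSM7 (158 of 300, 52.7%) encode subunits of the ring on the U6 tail. The other was MEPCE (270 of 452, 59.7%), whose product methylates the 5′ end of 7SK RNA. None of these fractions lay above the 70.2% median of all listed windows. The share of all genes with an mRNA window was not computed, so the count of 3 has no background beside it.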

How the data were processed

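Per the study's methods and labels, CLIP reads of the 3 libraries were mapped to GRCh37/hg19 with Segemehl, unmapped reads were remapped after 3′ T runs had been trimmed, and unique reads with at least 4 untemplated terminal T were called uridylated. The labels also name Subread, without a role. Windows of 50 nt were kept from 20 reads upward when the posterior of a frequency above 0.25, multiplied over libraries, reached 0.95. In the deposited table, 11 listed windows nevertheless have under 20 unique reads, the smallest 7. The lowest U+ fraction of a listed window, 0.72%, is also below 0.25. The deposited counts may therefore not be those from which the study estimated the frequency, and the sources used here do not explain the difference. The deposited counts (unique and uridylated reads) were summed over libraries by the authors. Reads mapping to several places were dropped, which affects a repeated family such as U6.

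The U+ fraction and its 95% Wilson interval were computed with scipy 1.17.1. Windows were read as 1-based, annotated with GENCODE release 44 on GRCh37 (all 32 symbols matched), aligned to the RNU6-1 body with biopython 1.88, and searched for copies with blastn 2.17.0. Alignment and interval code was tested on simulated data. No test over windows was run. The members, gene lists and the rule for named windows (RNU6-1, the 6 with most U+ reads, the 4 highest and 4 lowest from 100 reads, those at 100%, all others by fraction) were chosen with earlier results of these data known. Alternatives were other read minima, intervals, denominators, copy definitions, host definitions and search distances. Some member sequences are not reported here.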

Additional observations from a re-analysis of the deposited data

How the results depend on the processing

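Of 18 alternatives, 9 left the value within 1.5 times its count or within its interval. These included every alternative for the median U+ fraction (88.4 to 92.3%, main value 92.2%), and the count of windows with the 3′ end, which stayed at 25 with starts read as 0-based. The number of windows over 50% was 15 (of 16) with at least 100 unique reads, and 18 with a bound above 75%. The share of snRNA U+ reads was 30.1% without RNU2-2P; as a share of unique reads it was 1.16% and as a share of windows 55.2%. Windows with a copy elsewhere numbered 1 for exact matches and 21 for 40 nt with 4 differences, so placement of reads depends on this definition. Windows inside a host gene numbered 21 on either strand. The relation of fraction and depth reversed, from a rho of -0.29 to 0.21, with at least 100 unique reads; the cause was not tested. The authors' own frequency estimate was not run as an alternative, since the table used here holds counts alone. No paired analysis was possible because the counts are pooled over the libraries, which also kept single libraries from being left out. Depth limits single windows: the median width of the Wilson interval was 12.9 percentage points.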
